A study of Mus musculus with 11 samples.

Results

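The HoxB cluster is one of the 4 groups of Hox genes in the mouse genome, and its 10 genes were taken by symbol from the deposited gene tables, out of 46469 symbols listed. Poly(A) RNA of mouse embryonic fibroblasts had been sequenced in 11 libraries to ask how gene expression depends on Actb, the gene of the cytoskeletal protein β-actin. The groups were Actb +/+ cells with both copies of the gene (WT, n = 4), Actb +/- cells with 1 copy (Het, n = 4) and Actb -/- cells with none (KO, n = 3, replicates 1, 3 and 4). All cells carried the BALB/c background and came from embryos of 10.5 days, and RNA was isolated with TRI Reagent when cultures were 70% confluent. A further KO library had failed the submitters' quality control and is not analysed here. The labels call the samples biological replicates without telling separate embryos or cultures from repeats of 1, and do not describe how the Actb allele was made. The p-values thus rest on the spread among these libraries alone, and that spread may be technical.

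Hox genes encode homeodomain transcription factors that give cells their position along the head-to-tail axis. Within a cluster the genes at the 3′ end are switched on earlier and further forward in the embryo, those at the 5′ end later and further back, and fibroblasts in culture keep much of the Hox pattern of the body site they came from. Retinoic acid opens the 3′ end, Polycomb complexes keep silent Hox genes shut, and Hox proteins bind DNA together with PBX and MEIS partners.

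On mouse chromosome 11 (GRCm38, coordinates counted from 1) the cluster ran over 174 kb, from the first base of Hoxb13 at 96194361 to the last base of Hoxb1 at 96368254, with all 10 genes on the plus strand. Hoxb13 lay alone at the 5′ end, and 54.3 kb separated it from the deposited locus of Hoxb9. Hoxb9 to Hoxb1 followed in order of falling number, except that the deposited Hoxb3 locus begins upstream of Hoxb4 and contains it. The homeoboxes, the 180 bases that encode the DNA-binding domain, are shown for the 5′ gene that moved most and its nearest neighbour, and for the pair most alike in sequence. Capitals mark the 18 bases of the conserved part of the third, DNA-contacting helix. Sequences are from the GENCODE M21 transcripts on GRCm38, plus strand, with Hoxb13 at chr11:96196020-96196199, Hoxb9 at chr11:96274659-96274838, Hoxb7 at chr11:96289385-96289564 and Hoxb6 at chr11:96300689-96300868.
Hoxb13: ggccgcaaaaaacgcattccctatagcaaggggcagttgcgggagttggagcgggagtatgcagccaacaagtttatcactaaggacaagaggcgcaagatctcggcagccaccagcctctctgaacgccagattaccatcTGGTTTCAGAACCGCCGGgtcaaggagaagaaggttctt
Hoxb9: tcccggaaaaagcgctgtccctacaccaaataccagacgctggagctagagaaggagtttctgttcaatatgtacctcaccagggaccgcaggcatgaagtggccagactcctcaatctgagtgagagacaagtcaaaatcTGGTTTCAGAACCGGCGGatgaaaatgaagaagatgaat
Hoxb7: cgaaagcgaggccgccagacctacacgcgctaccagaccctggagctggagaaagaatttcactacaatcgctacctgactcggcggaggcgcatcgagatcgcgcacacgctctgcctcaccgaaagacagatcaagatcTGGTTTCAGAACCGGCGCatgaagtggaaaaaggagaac
Hoxb6: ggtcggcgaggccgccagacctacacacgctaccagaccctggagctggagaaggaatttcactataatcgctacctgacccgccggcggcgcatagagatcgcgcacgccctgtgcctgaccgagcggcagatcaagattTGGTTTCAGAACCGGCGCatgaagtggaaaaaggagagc
The Hoxb6 and Hoxb7 homeoboxes shared 88.9% of their bases, with a longest identical run of 37 bases, and a read lying wholly inside such a run cannot be assigned to either gene. The Hoxb13 homeobox shared 50.6% to 60% of its bases with those of the other members and was closest to that of Hoxb9.

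The libraries were of unequal depth. No read counts were among the deposited tables, and relative depth, estimated from the step between low values, lay between 62.0% (WT 3) and 127% (WT 4) of that of WT 1. Levels are in FPKM, fragments scaled to transcript length and to library size. For genes between 5 and 20 FPKM, the 95% interval of Cufflinks reached 11.8% to 16.8% to either side of the value (median of each library), an error that leaves out the spread between libraries. Actb itself fell from 1350 ± 224 FPKM in WT (SD, n = 4) to 856 ± 22.5 in Het (n = 4) and 43.5 ± 1.70 in KO (n = 3), in the order of the labels. Of 9 fibroblast markers all were listed, but Thy1 (0.0256 FPKM) and Pdgfra (0.215 FPKM) were close to 0 on average in WT. The summed level of that list was 1904 to 2435 FPKM in WT, 2884 to 3285 in Het and 3818 to 4515 in KO. The order of the sum did not hold for every marker. Col1a2 averaged 6.998, 198 and 10.9 FPKM in WT, Het and KO, and Pdgfra 0.215, 4.43 and 0.916. Both were thus highest in Het, as was P4hb (444, 563 and 462 FPKM). The other markers of the list were highest on average in KO. Xist, the RNA that coats the inactive X chromosome, averaged 0.0511 FPKM in WT, 49.99 in Het and 0.0425 in KO, and the Y-linked Kdm5d was listed at 0 in every library. Xist thus marks a difference between the Het cultures and those of the other groups. Whether this difference lies in the origin of the cultures was not tested. In comparisons with Het it cannot be told apart from Actb dose. Between KO and WT Xist did not differ (-0.01, limma, adjusted p = 0.945). A difference in origin that Xist does not mark cannot be told apart from Actb dose there either. In bulk RNA, fewer cells expressing a gene and less of its RNA per cell cannot be told apart either.

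Levels within the cluster were far apart. FPKM is a value per length, so genes can be set side by side on it. In WT, Hoxb9 was highest at 47.4 ± 3.28 FPKM (SD, n = 4) and none of its libraries came near those of another member. Next stood Hoxb13 (9.74 ± 5.18), Hoxb7 (9.46 ± 1.53), Hoxb6 (8.03 ± 1.30), Hoxb2 (6.29 ± 1.48), Hoxb8 (5.37 ± 0.797) and Hoxb3 (4.64 ± 0.499), and each of these overlapped its neighbour in that order. Hoxb5 (2.44 ± 0.278) and Hoxb4 (2.12 ± 0.472) lay below them and overlapped each other. Hoxb1 came last at 0.0105 FPKM on average. Hoxb9 made up 50.03% ± 6.95 of the summed HoxB FPKM in WT, 44.0% ± 4.58 in Het and 46.6% ± 2.98 in KO. The share of Hoxb13 was 9.94% ± 4.61 in WT, 23.0% ± 3.62 in Het and 2.43% ± 0.668 in KO. Summed over the 10 members, the level was 95.5 ± 7.69 FPKM in WT, 134 ± 5.37 in Het and 110 ± 6.595 in KO.

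**Figure D1:**
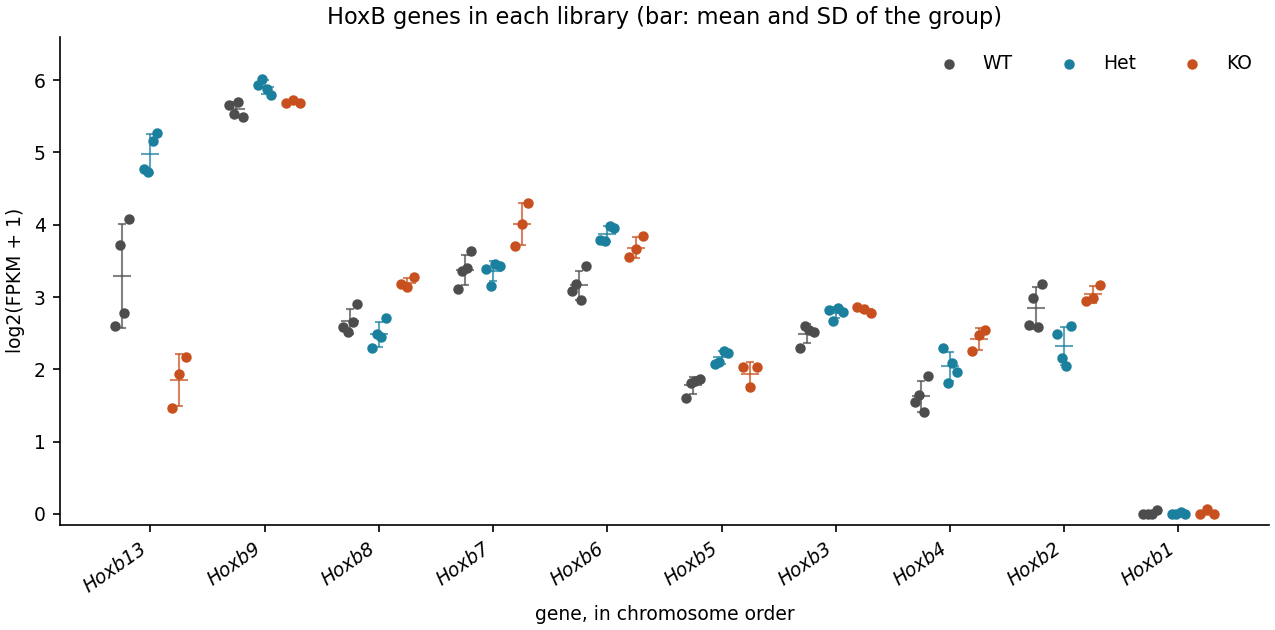
Level of each HoxB gene as log2(FPKM + 1) in each of the 11 libraries, in the order of the deposited loci along chromosome 11; points are libraries and the bar is the mean and SD of the group. Hoxb9 is highest in every group, Hoxb13 is spread from the KO libraries (1.76 to 3.51 FPKM) to the Het libraries (25.5 to 37.7 FPKM), and Hoxb1 is at or near 0.

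Of the 10 members, 9 reached the filter used for testing (1 FPKM after scaling, reached in 3 libraries or more), and each of these 9 exceeded 1 FPKM in all 11 libraries. Differences below are limma estimates of log2(FPKM + 1) between group means, with SE, and with Benjamini-Hochberg adjusted p over the 14948 genes tested. Between KO and WT, 6 members rose and 1, Hoxb13, fell, against 47.1% of all genes tested that passed the threshold of 0.05 (23.3% higher and 23.8% lower). In Het against WT, again 6 rose and 1 fell, where Hoxb13 was among the higher and Hoxb2 was the lower, against 43.8% of all genes. In KO against Het, 4 rose and 1 fell, against 44.2% of all genes. The median difference over the 9 members was 0.42 in KO against WT, 0.30 in Het against WT and 0.14 in KO against Het, beside 0.01 for all genes tested in each. The 3 comparisons share their groups, so they are not independent of each other. Without scaling between libraries, the share of all calls that were higher was 37.1% in place of 49.4% in KO against WT and 36.5% in place of 49.8% in KO against Het, and of the members 5 rose and 1 fell in KO against WT, and 4 rose and 2 fell in KO against Het.

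**Figure D2:**
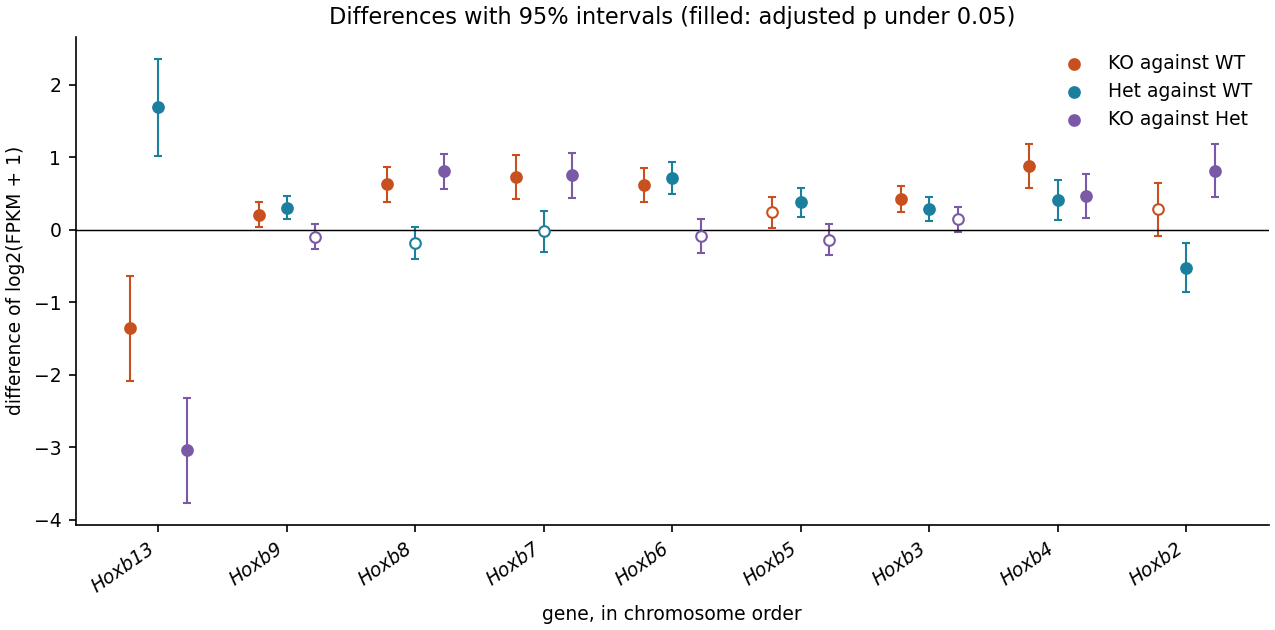
Difference of log2(FPKM + 1) for the 9 tested HoxB genes in the order of their loci, for KO against WT, Het against WT and KO against Het, with 95% intervals from limma; filled points have an adjusted p under 0.05. Hoxb13 lies at -1.36 in KO against WT and at 1.68 in Het against WT, while the other members lie between -0.53 and 0.87 in these comparisons.

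Hoxb13 (96194361 to 96196599), the 5′ gene, is known from mice for limiting growth of the tail end of the spinal cord and vertebrae and for its expression in the prostate. It stood at 5.05, 12.2, 5.84 and 15.8 FPKM in WT 1 to WT 4, at 26.3, 25.5, 34.9 and 37.7 in Het 1 to Het 4, and at 1.76, 2.82 and 3.51 in KO 1, KO 3 and KO 4. The 3 groups did not overlap, with every Het library above every WT library and every KO library below. Hoxb13 fell by 1.36 ± 0.33 (SE) in KO against WT (limma, adjusted p = 0.00561). It rose by 1.68 ± 0.30 in Het against WT (limma, adjusted p = 0.00110), and lay 3.04 ± 0.33 lower in KO than in Het (limma, adjusted p = 2.56e-05).

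The WT libraries themselves split for Hoxb13. WT 1 and WT 3 lay below WT 2 and WT 4, and the Cufflinks intervals of these pairs (3.70 to 6.40 and 3.98 to 7.69 FPKM against 10.2 to 14.3 and 13.7 to 17.995) did not overlap. The same split, with WT 1 and WT 3 lower, was present for Hoxb2, Hoxb4 and Hoxb6, which with Hoxb13 makes 4 of 9 tested members, beside 30.1% of all genes tested, and WT 1 and WT 3 were the higher pair for Hoxb9 alone, 1 of 9, beside 36.2% of all genes. The split of these WT pairs thus ran through much of the data and was not particular to the HoxB genes. WT 3 was the shallowest and WT 4 the deepest library, and the part of depth in this split was not tested. Without WT 1 and WT 3, the Hoxb13 difference was -1.95 in KO against WT and 1.09 in Het against WT. Without WT 2 and WT 4 it was -0.78 and 2.26, and in all these fits it stayed past the threshold.

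Between Hoxb13 and Hoxb9 the tables list 3 further loci, which were looked up after the values of Hoxb13 had been seen and are given as a description. Gm30134, which starts 2.25 kb beyond the end of Hoxb13 (96198847 to 96203620), stood at 3.34 to 4.42 FPKM in WT and at 16.1 to 19.98 in Het. In KO it was 1.80 in KO 1 but 0.166 and 0.192 in KO 3 and KO 4. Gm11538, which overlaps its end (96203454 to 96205480), stood at 0.678 to 1.67 FPKM in WT, 3.93 to 4.66 in Het and 0.0559 to 0.112 in KO. Both loci were thus highest in Het and lowest in KO with no overlap of groups, as Hoxb13 was. Gm30134 differed by -1.60 in KO against WT and by 1.97 in Het against WT, and Gm11538 by -0.90 and 1.35. Gm11539, a processed pseudogene 52.0 kb beyond the end of Hoxb13 (96248598 to 96249228), did not show that order: its libraries ran from 6.51 to 22.4 FPKM in WT, from 15.2 to 23.4 in Het and from 12.2 to 19.6 in KO.

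**Figure D3:**
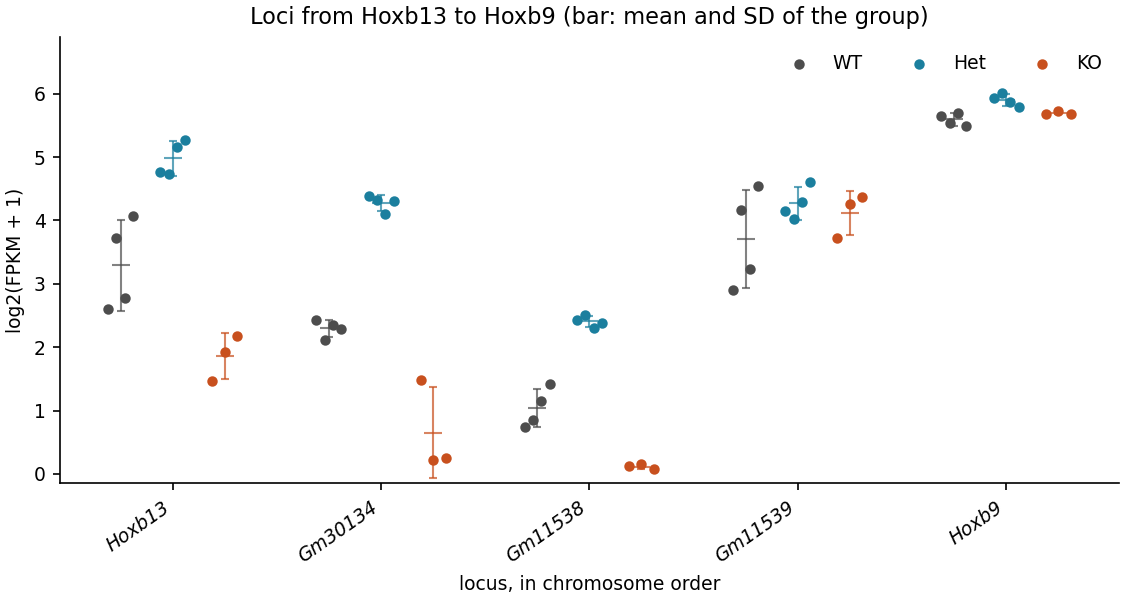
Levels as log2(FPKM + 1) of the 5 loci listed from Hoxb13 to Hoxb9 in each library, in the order of their starts, with the mean and SD of each group. The Het points lie above and the KO points below the WT points at Hoxb13, Gm30134 and Gm11538, while the groups overlap at Gm11539, and WT and KO overlap at Hoxb9 (44.0 to 50.9 and 50.3 to 52.0 FPKM).

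Hoxb9, which in mice patterns the ribs and sternum, stood at 49.4, 45.2, 50.9 and 44.0 FPKM in WT 1 to WT 4, at 60.2, 63.5, 57.6 and 54.4 in Het 1 to Het 4, and at 50.6, 52.0 and 50.3 in KO 1, KO 3 and KO 4. As deposited, all Het libraries were above all WT and KO libraries, while WT and KO overlapped. On scaled levels Het and KO overlapped, and KO against Het gave -0.10 (limma, adjusted p = 0.335). It rose by 0.30 ± 0.07 in Het against WT (limma, adjusted p = 0.00559). In KO against WT the difference was 0.20 ± 0.08 (limma, adjusted p = 0.0486), with scaled levels that did not overlap. That call rested on the libraries and settings used: it was lost without WT 2 (adjusted p = 0.117), WT 4 (0.101), KO 1 (0.105), KO 3 (0.129) or KO 4 (0.0800), and without scaling the difference was 0.10 (adjusted p = 0.2204). Without WT 2 and WT 4 it was 0.09 (adjusted p = 0.298), and the rise in Het was then 0.19 (adjusted p = 0.0429). The deposited Hoxb9 locus (96250938 to 96276595) also covers the non-coding gene Gm53 and the microRNA gene Mir196a-1, and how reads were shared among them is not given in the sources used here. Gm53 stood at 1.36, 3.18 and 1.06 FPKM on average in WT, Het and KO and passed the threshold in none of the comparisons.

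Hoxb8 and Hoxb7 were higher in KO than in both other groups. Hoxb8 (96281905 to 96285325), which in mice is needed in microglia for normal grooming, stood at 4.98, 4.71, 5.28 and 6.52 FPKM in WT 1 to WT 4, at 3.90, 4.63, 4.47 and 5.55 in Het 1 to Het 4, and at 8.07, 7.83 and 8.67 in KO 1, KO 3 and KO 4. All 3 KO libraries lay above every WT and Het library, which overlapped each other. The gene rose by 0.62 ± 0.11 in KO against WT (limma, adjusted p = 0.000764) and by 0.81 ± 0.11 in KO against Het (limma, adjusted p = 0.000136). Het against WT gave -0.18 with a 95% interval from -0.41 to 0.04 (limma, adjusted p = 0.170).

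Hoxb7, whose regulatory region is widely used to mark the ureteric bud of the kidney, showed the same order (96286646 to 96290163). It stood at 7.66, 9.23, 9.57 and 11.4 FPKM in WT 1 to WT 4, at 9.51, 7.87, 9.99 and 9.81 in Het 1 to Het 4, and at 12.1, 15.1 and 18.6 in KO 1, KO 3 and KO 4. KO 1 was only a little above WT 4, and WT and Het libraries were mixed. Hoxb7 rose by 0.72 ± 0.14 in KO against WT (limma, adjusted p = 0.00144) and by 0.75 ± 0.14 in KO against Het (limma, adjusted p = 0.00122). In Het against WT the difference was -0.02, with a 95% interval from -0.31 to 0.26 (limma, adjusted p = 0.903).

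Hoxb6 (96292669 to 96301569), a gene of the lateral plate mesoderm and hindlimb field, was higher in both Het and KO. Its values were 7.49, 8.06, 6.75 and 9.80 FPKM in WT 1 to WT 4, 12.8, 12.7, 14.8 and 14.5 in Het 1 to Het 4, and 10.7, 11.6 and 13.3 in KO 1, KO 3 and KO 4. No WT library reached the lowest Het or KO library, while Het and KO overlapped. Hoxb6 rose by 0.70 ± 0.10 in Het against WT (limma, adjusted p = 0.000215) and by 0.61 ± 0.11 in KO against WT (limma, adjusted p = 0.000784). KO against Het gave -0.09 with a 95% interval from -0.33 to 0.15.

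Hoxb5 (96303512 to 96306121), which acts in the neural crest that forms the gut's nervous system, was the member with the lowest level after Hoxb4 and Hoxb1 in WT. It stood at 2.03, 2.50, 2.58 and 2.64 FPKM in WT 1 to WT 4, at 3.21, 3.31, 3.77 and 3.66 in Het 1 to Het 4, and at 3.10, 2.37 and 3.11 in KO 1, KO 3 and KO 4. Het lay above WT throughout, and KO 3 lay within the WT range. Hoxb5 rose by 0.38 ± 0.09 in Het against WT (limma, adjusted p = 0.00596). In KO against WT the difference was 0.24 (limma, adjusted p = 0.0667), and without KO 3 it was 0.33 and past the threshold (adjusted p = 0.0207). KO against Het gave -0.14 (limma, adjusted p = 0.271).

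Hoxb4 (96318267 to 96321638), known for expanding blood stem cells when supplied in excess, was highest in KO. It stood at 1.94, 2.12, 1.65 and 2.76 FPKM in WT 1 to WT 4, at 3.89, 2.52, 3.25 and 2.91 in Het 1 to Het 4, and at 3.76, 4.55 and 4.82 in KO 1, KO 3 and KO 4. KO lay above WT throughout, and Het 2 lay below WT 4. Hoxb4 rose by 0.87 ± 0.14 in KO against WT (limma, adjusted p = 0.000365), the largest rise among the members in that comparison. It also rose in Het against WT (0.41 ± 0.13, limma, adjusted p = 0.0236) and in KO against Het (0.47 ± 0.14, limma, adjusted p = 0.0170). The call for Het was lost without WT 3, Het 1 or Het 3 (adjusted p = 0.0669, 0.0676 and 0.0573), and that of KO against Het without KO 3 or KO 4 (0.0593 and 0.0677).

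Hoxb3, which takes part in dividing the hindbrain into segments, stood at 3.93, 5.08, 4.84 and 4.69 FPKM in WT 1 to WT 4, at 6.04, 5.36, 6.23 and 5.94 in Het 1 to Het 4, and at 6.29, 6.15 and 5.88 in KO 1, KO 3 and KO 4. Both other groups lay above WT with no overlap. The gene rose by 0.42 ± 0.08 in KO against WT (limma, adjusted p = 0.00130) and by 0.29 ± 0.07 in Het against WT (limma, adjusted p = 0.00966). KO against Het gave 0.14 (limma, adjusted p = 0.189). Its deposited locus (96307079 to 96347930) spans 40852 bp and holds Hoxb4 and Mir10a, so that reads in the shared stretch could go to more than 1 gene.

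Hoxb2 (96351632 to 96354020), which acts in forming the facial nerve nucleus of the hindbrain, was the only member to fall in Het. It stood at 5.14, 6.95, 5.01 and 8.06 FPKM in WT 1 to WT 4, at 4.64, 3.45, 3.11 and 5.05 in Het 1 to Het 4, and at 6.72, 6.96 and 8.02 in KO 1, KO 3 and KO 4. As deposited, Het 4 lay between the lower WT libraries, and on scaled levels all Het libraries lay below all WT and KO libraries. Hoxb2 fell by 0.53 ± 0.15 in Het against WT (limma, adjusted p = 0.0165) and was 0.81 ± 0.17 higher in KO than in Het (limma, adjusted p = 0.00217). The fall was past the threshold neither without Het 3 (-0.43, adjusted p = 0.0508) nor without WT 2 and WT 4 (-0.31, adjusted p = 0.114). In KO against WT the difference was 0.28 (limma, adjusted p = 0.186), and without WT 2 and WT 4 it was 0.50 (adjusted p = 0.0237).

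Hoxb1, which sets the identity of a hindbrain segment, was at the 3′ end (96365746 to 96368254) and was listed at 0 in 8 of 11 libraries. The exceptions were WT 4 at 0.0419 FPKM, Het 3 at 0.0165 and KO 3 at 0.0521, each with a Cufflinks interval that began at 0. It was not tested. In these cells the signal of the cluster thus stopped between Hoxb2 and Hoxb1 on the 3′ side.

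On scaled levels, 6 members lay wholly above WT in KO, beside 22.8% of all genes tested, and 1 wholly below, beside 23.6% (46.4% in either direction). The members above were Hoxb9, Hoxb8, Hoxb7, Hoxb6, Hoxb4 and Hoxb3, and Hoxb13 was below. In the Het libraries 5 members lay wholly above WT, beside 19.4% of all genes, and 1 wholly below, beside 20% (39.5% in either direction). Between KO and Het, 5 members lay above, beside 27.2% of all genes, and 1 below, beside 26.7% (54% in either direction). Those above were Hoxb8, Hoxb7, Hoxb4, Hoxb3 and Hoxb2, of which Hoxb3 did not pass the threshold of the fit.

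Non-coding genes of the cluster were read in the same tables. Hoxb5os, an antisense gene whose deposited locus (96290039 to 96310226) runs over Hoxb6, Hoxb5 and the ends of Hoxb7 and Hoxb3, stood at 2.18 to 2.40 FPKM in WT, 4.66 to 6.43 in Het and 4.004 to 4.40 in KO. Both groups lay above WT, while on scaled levels Het and KO overlapped and KO against Het gave -0.20 (limma, adjusted p = 0.112). It rose by 0.93 in Het against WT (limma, adjusted p = 1.29e-05) and by 0.73 in KO against WT (limma, adjusted p = 0.000106). The libraries were stranded, but whether the strand was used when reads were assigned is not given in the sources used here, and its values and those of Hoxb6 and Hoxb5 may share reads. Hoxb3os ranged from 0.840 to 3.60 FPKM in WT, 0.805 to 2.52 in Het and 0.956 to 3.98 in KO, and passed the threshold in no comparison.

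Mir196a-1 and Mir10a are shown because their mature forms act on Hox messages, and the first has a long match in a member that was higher in KO. Mature sequences are from RefSeq on GRCm38.p6, plus strand, with the seed (bases 2 to 8) in capitals, at chr11:96265187-96265208 and chr11:96317186-96317208.
mmu-miR-196a-5p: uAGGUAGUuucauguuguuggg
mmu-miR-10a-5p: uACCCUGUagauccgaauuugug
In the 3′ UTR of the GENCODE M21 transcript of Hoxb8 the best match to miR-196a lay at chr11:96284888-96284909, where capitals mark the bases opposite the seed.
Hoxb8 site: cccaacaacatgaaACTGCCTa
Of 22 bases, 21 paired by Watson and Crick rules and 1 by a G:U pair, with 0 unpaired. The G:U pair lay within the seed, which was thus not fully paired by Watson and Crick rules. The best ungapped match in each of the other members left 4 or 5 bases unpaired. Directed cleavage of the Hoxb8 message by miR-196a is known from mouse embryos. The Mir196a-1 row held 98.1, 63.3, 0 and 132 FPKM in WT 1 to WT 4, 287, 121, 156 and 195 in Het 1 to Het 4, and 50.4, 162 and 129 in KO 1, KO 3 and KO 4. A poly(A) library does not capture mature microRNAs, FPKM of so short a locus is coarse, and the groups overlapped, with adjusted p between 0.131 and 0.712 over the 3 comparisons (limma). Mir10a was listed at 25.2 FPKM in WT 1 and at 0 in the other 10 libraries, and Mir3063 at no more than 0.101 FPKM in any library.

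Promoters from 250 bases before to 50 after the start site were at hand for 3 of the 10 members in RefSeq (GRCm38.p6). Those of Hoxb8 and Hoxb4, which were both higher in KO than in WT and in Het, are shown, on the plus strand, at chr11:96281655-96281954 and chr11:96318017-96318316. Capitals mark matches, on either strand, to the 4 motifs searched: AGGTCA (a site of retinoic acid receptors), TAATTA (a core bound by many homeodomains), TTTATG (bound by CDX factors) and TATAAA (the TATA box).
Hoxb8: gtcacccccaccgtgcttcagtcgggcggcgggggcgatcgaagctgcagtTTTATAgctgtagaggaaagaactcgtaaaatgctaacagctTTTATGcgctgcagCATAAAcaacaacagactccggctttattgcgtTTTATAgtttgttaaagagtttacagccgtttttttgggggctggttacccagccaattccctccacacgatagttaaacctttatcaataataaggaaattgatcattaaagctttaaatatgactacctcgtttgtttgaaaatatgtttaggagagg
Hoxb4: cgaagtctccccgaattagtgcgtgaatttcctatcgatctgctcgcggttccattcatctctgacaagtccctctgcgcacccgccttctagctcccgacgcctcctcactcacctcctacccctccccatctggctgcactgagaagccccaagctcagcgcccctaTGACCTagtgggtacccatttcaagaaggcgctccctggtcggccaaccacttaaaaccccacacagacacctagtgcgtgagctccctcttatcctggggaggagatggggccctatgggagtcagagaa
The Hoxb8 window held TTTATG at -157 on the plus strand and -143 on the minus strand, and TATAAA at -199 and -110, both on the minus strand. The Hoxb4 window held AGGTCA once, at -81 on the minus strand, and the Hoxb1 window held none of the 4. Over 27025 promoters of the same length, AGGTCA was present in 16.04%, TAATTA in 5.31%, TTTATG in 12.15% and TATAAA in 14.16%. The GC content was 42.3% for Hoxb8 and 58% for Hoxb4, beside a median of 52.7% over all promoters. These are matches of letters and were not tested as sites.

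Genes that flank the cluster are given for comparison. On the Hoxb1 side, Skap1, an adaptor protein of T cells, averaged 1.14 FPKM in WT, 0.388 in Het and 0.894 in KO, and fell by 0.62 in Het against WT (limma, adjusted p = 0.00204). The non-coding 2010300F17Rik, looked up after values had been seen, stood at 3.003 to 3.62 FPKM in WT, 0.237 to 0.703 in Het and 1.91 to 2.55 in KO. These 2 loci were thus lowest in Het, as Hoxb2 was. Ube2z, a ubiquitin-conjugating enzyme, fell by 0.19 in KO against WT (limma, adjusted p = 0.0150). Atp5g1, a subunit of the mitochondrial ATP synthase, rose by 0.42 in Het against WT (limma, adjusted p = 0.0406), and its WT libraries split as those of Hoxb13 did (68.1 and 83.4 FPKM in WT 1 and WT 3, 112 and 119 in WT 2 and WT 4). Snx11 (8.53, 9.33 and 9.90 FPKM on average in WT, Het and KO) and Cbx1 (85.3, 90.0 and 72.9) passed the threshold in no comparison. Ttll6 and Calcoco2 stayed under 1 FPKM and were not tested.

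The other Hox clusters were read on the same scale. Summed FPKM of HoxA was 20.2 ± 2.53 in WT, 33.6 ± 1.01 in Het and 43.3 ± 1.71 in KO, that of HoxC 7.68 ± 0.698, 45.1 ± 1.18 and 0.984 ± 0.401, and that of HoxD 0.0484 ± 0.0420, 0.967 ± 0.309 and 13.1 ± 1.87. HoxB was thus the most strongly expressed cluster in all 3 groups. Against WT, KO had 8 of 10 tested HoxA genes and 3 of 3 HoxD genes that rose and 0 that fell, while 0 of 8 HoxC genes rose and 5 fell, beside 23.3% of all genes that rose and 23.8% that fell. Hoxd4, Hoxd8 and Hoxd9 reached the filter only through the KO libraries. The direction of their change was thus set by the filter, and the share of all genes is no measure for them. Het had, against WT, 7 of 8 HoxC genes that rose and 1 that fell, beside 21.7% and 22.1% of all genes, and in KO against Het all 8 fell, beside 22.2%. Of these, Hoxc8 and Hoxc10 to Hoxc13 reached the filter only through the Het libraries, so their being higher in Het was set by the filter. Hoxc13, the paralogue of Hoxb13, averaged 0.249 FPKM in WT, 6.19 in Het and 0.280 in KO, so it too was highest in Het. Hoxa13 stayed at or under 0.175 FPKM and Hoxd13 was listed at 0 in every library. Paralogues of Hoxb9 differed from it more widely between groups: Hoxa9 averaged 1.48, 5.01 and 6.81 FPKM in WT, Het and KO, Hoxc9 1.59, 3.33 and 0.0214, and Hoxd9 0, 0.0517 and 1.65. Hoxd8, the paralogue of Hoxb8, was at 0.0326, 0.446 and 8.92 FPKM, and Hoxc8 at 0.222, 2.43 and 0.0108. Hoxb8 and Hoxd8 were highest in KO, and Hoxc8 was highest in Het.

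**Figure D4:**
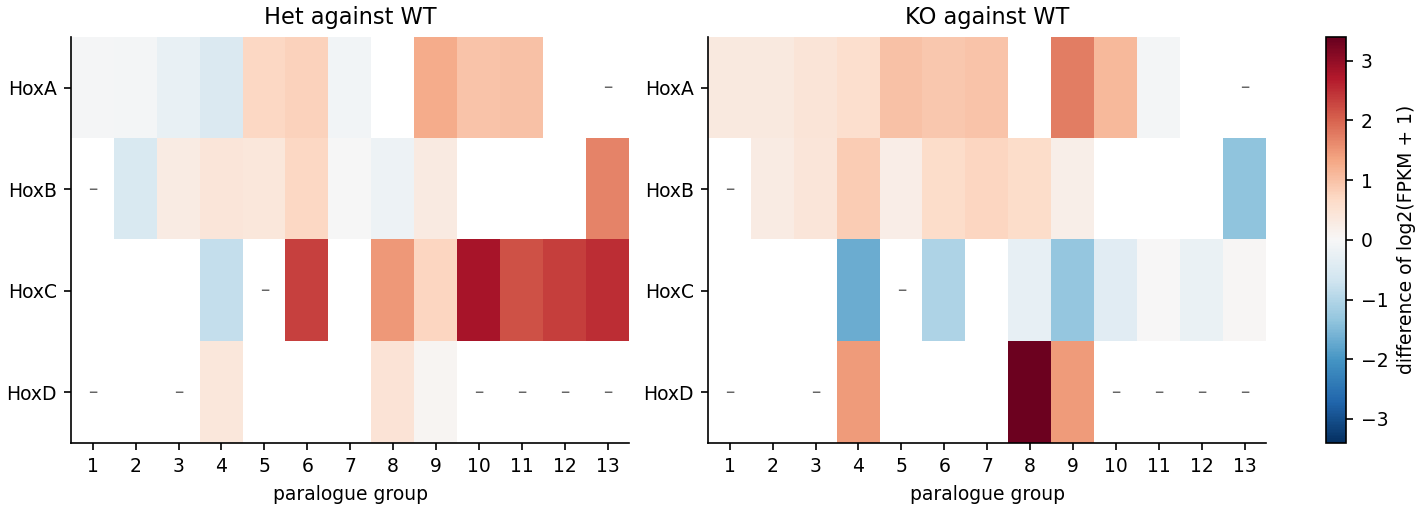
Difference of log2(FPKM + 1) in Het against WT (left) and KO against WT (right) for every gene of the 4 Hox clusters, with clusters in rows and paralogue numbers in columns. Red is higher and blue lower than WT, and a dash marks a listed gene that was not tested. White without a dash marks no gene in the lists used, but a tested difference of 0, as of Hoxc11 in KO against WT, is also near white. HoxC is mostly red in Het (7 of 8 tested genes rose) and blue or pale in KO, while the HoxB row is pale except at Hoxb13 (1.68 and -1.36). Hoxc8 and Hoxc10 to Hoxc13 were tested only because of their level in Het.

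The lists that follow are described by their counts, beside the 47.1%, 43.8% and 44.2% of all genes tested that passed the threshold in KO against WT, Het against WT and KO against Het. Partners of the Hox proteins were described from a list of 10, all tested. In KO against WT 3 rose, among them the DNA-binding partner Meis1 (1.13) and the PBX-interacting Pbxip1 (0.96), and 1 fell, Pknox2 (-1.06), with a median of -0.20 for the list. Against WT, Het had 4 that rose, among them Meis2 (1.33), Pbxip1 (0.74) and Pbx2 (0.26), and 0 that fell (median 0.17). In KO against Het 1 rose, Meis1 (1.12), and 4 fell, led by Meis2 (-1.56), Pknox2 (-0.80) and Pbx2 (-0.48) (median -0.20). Meis2 averaged 5.02, 14.2 and 3.90 FPKM in WT, Het and KO, and thus stood in the same order of groups as Hoxb13. Its difference in KO against WT (-0.23) was not past the threshold, however (limma, adjusted p = 0.0939).

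Of 19 retinoid genes 12 were tested, and 9 passed the threshold in KO against WT, 9 in Het against WT and 5 in KO against Het, the last near the share of all genes. In KO against WT 5 rose and 4 fell (median 0.31), led by Stra6 (-2.06), which takes up vitamin A, the receptors Rara (1.44) and Rxra (0.80), and Crabp2 (1.35), which carries retinoic acid to its receptors. Het had 6 that rose and 3 that fell against WT (median 0.36), led by Crabp2 (3.25), Stra6 (-1.79), Dhrs3 (1.32), which turns retinal back into retinol, and Rara (1.19). In KO against Het 0 rose and 5 fell (median -0.13), with Crabp2 (-1.90), Rdh10 (-0.77), Aldh1a1 (-0.61) and Dhrs3 (-0.59) changed most. Stra6 reached the filter only through WT libraries and Aldh1a1 only through Het libraries, so their being highest in those groups was set by the filter. Cdx1, Cdx2 and Cdx4, known for opening the 5′ part of Hox clusters in the tail bud, stayed at or under 0.0632 FPKM in every library. Of the 3 tested genes of the CDX and GDF11 list, Tgfbr1, a TGF-β family receptor, rose in KO against WT (0.86) and Het (0.76), and the ligand Gdf11 fell (-0.44 and -0.40), while in Het against WT 0 passed the threshold, with Gdf11 at 9.82 and 9.49 FPKM and Tgfbr1 at 7.40 and 7.99 on average in WT and Het.

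Polycomb genes were all tested, 26 of 26, and 13 passed the threshold in KO against WT, 9 in Het against WT and 13 in KO against Het, near or below the share of all genes. In KO against WT 9 rose and 4 fell (median 0.14), led by the PRC1 subunits Cbx6 (0.80), Pcgf6 (-0.56), Pcgf3 (0.54) and Bmi1 (0.52). Het had 5 that rose and 4 that fell against WT (median 0.06), led by Cbx7 (-0.88), Phf19 (-0.51), Ezh1 (0.44) and Phc1 (0.42), and in KO against Het 9 rose and 4 fell (median 0.18), led by Cbx7 (0.79), Cbx6 (0.73), Phc2 (0.71) and Rnf2 (-0.68). Of 12 Trithorax genes and H3K27 demethylases, which oppose Polycomb, 1 rose in KO against WT, Kdm6a (0.29), while in Het 3 rose and 2 fell, led by Kdm6a (1.13), Kdm6b (0.78), Kmt2b (0.48) and Psip1 (-0.39). In KO against Het 2 rose and 3 fell, with Kdm6a (-0.84), Psip1 (0.34), Rbbp5 (-0.32) and Kmt2a (-0.24) changed most. Kdm6a, which is X-linked, was thus highest in the group in which Xist was high, and whether that bears on the HoxB genes was not tested. Among 8 genes of chromosome architecture 3 fell and 0 rose in KO against WT, the cohesin subunit Smc1a (-0.71), the cohesin release factor Wapl (-0.68) and the boundary factor Ctcf (-0.51). Het had 1 that rose, Stag2 (0.51), and 2 that fell, Stag1 (-0.47) and Ctcf (-0.31), and in KO against Het Smc1a (-0.80), Wapl (-0.45) and Stag2 (-0.41) fell. Stag2 and Smc1a are X-linked, as Kdm6a is. Stag2 was highest in Het (35.8, 51.2 and 35.4 FPKM on average in WT, Het and KO). Smc1a was not past the threshold in Het against WT (0.09, limma, adjusted p = 0.416).

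Markers of other cell types moved with the groups and their part in the HoxB differences was not tested. The 8 neuronal markers summed to 19.5 to 28.8 FPKM in WT, 41.1 to 49.0 in Het and 14.6 to 16.6 in KO, and 5 of them, among them Snap25 and Syt1, were under 1 FPKM in every library. The sum rested on Tubb3 (11.1, 25.2 and 12.95 FPKM on average in WT, Het and KO) and Stmn2 (8.01, 16.7 and 1.85). Of the 3 tested markers Stmn2 had the order of groups of Hoxb13, while Pax6 was highest in WT (2.85, 1.87 and 0.281). Tubb3 was highest in Het, and its difference in KO against WT was not past the threshold (0.36, limma, adjusted p = 0.191). The 6 epithelial markers summed to 3.08 to 7.75 FPKM in WT, 5.62 to 9.92 in Het and 0.809 to 0.902 in KO, with Epcam and Cdh1 under 1 FPKM throughout. The 2 tested markers went opposite ways in Het against WT, Krt18 by 1.46 and Krt14 by -1.32. In KO against WT they differed by -1.15 and -1.66. All 5 endothelial markers were under 1 FPKM in every library. Of the 6 blood and macrophage markers 5 were also under 1 FPKM throughout, and Ptprc, Adgre1 and Hbb-bs were listed at 0. The exception was Cd68, which averaged 1.88, 1.58 and 2.73 FPKM in WT, Het and KO. It passed the threshold in no comparison, but on scaled levels all its KO libraries lay above all Het libraries (KO against Het 0.56, limma, adjusted p = 0.0643).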

How the data were processed

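The authors deposited 1 table per library with the FPKM of each locus and its interval, in the columns that Cufflinks writes, per the file headers. TopHat2 2.1.0, Cufflinks 2.2.1, Cuffdiff (no version) and GRCm38.p4 are named, with no settings, per the submitters' processing notes. No count table was used, so no count model was fitted. FPKM of loci with the same symbol were summed. Libraries were scaled with median-of-ratios factors (0.937 to 1.04, from 13981 genes), and genes that reached 1 FPKM after scaling in 3 libraries or more were tested, 14948 in all. For each comparison limma 3.58.1 (R 4.3.3) fitted group means to log2(FPKM + 1), a scale that understates changes of low genes, with a mean-variance trend over all 11 libraries and Benjamini-Hochberg adjustment at 0.05. FPKM printed per library are as deposited, and statements on overlap in the counts use scaled values. In 1 table, 31 symbols that had become dates were named from the other tables. All 10 members were named, and from each other list up to 4 genes per comparison, those of largest change past the threshold. Some results that this rule takes are not reported here. The fit was tested on simulated data. Members and lists were chosen with earlier results of these data known. Alternatives changed the scaling, pseudocount, filter, libraries, loci, trend and replicate block. Homeobox proteins were not analysed here.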

Additional observations from a re-analysis of the deposited data

Results flagged for a closer look

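In each of the 20 groups of 4 libraries formed by 10 members in WT and Het, the library farthest from the others was compared with the range of the group, and 2 stood apart by Dixon's criterion for small groups, where chance gives about 1 in 20. Both concern Hoxb1. WT 4 was listed at 0.0419 FPKM and Het 3 at 0.0165 FPKM, while the other 3 libraries of each group were at 0. In such a group any value above 0 is flagged, so the rate of 1 in 20 does not apply to these 2. The Cufflinks intervals of both values reach down to 0.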

How the results depend on the processing

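The number of members past the threshold stayed within 1.5 times the values reported under every setting tried. It ran from 6 to 7 in KO against WT, from 5 to 7 in Het against WT and from 4 to 5 in KO against Het when 1 library at a time was left out. Hoxb7 in Het against WT changed sign, from -0.02 to 0.0497 without WT 4, to 0.0421 without Het 2 and to 0.0689 without WT 2 and WT 4, and was past the threshold in none of these fits. Hoxb9 in KO against WT also missed the threshold with no filter on low values, with only the groups compared in the fit, with no trend (adjusted p = 0.0760, 0.0645 and 0.0617) and with scaling over genes of any level (0.0621), an alternative chosen after seeing the data, as were the fits without 2 WT libraries. Over all settings its adjusted p ran from 0.0115 to 0.298. Hoxb4 in Het against WT missed it with no filter (0.0569) and without WT 1 and WT 3 (0.162). Hoxb9 in KO against Het passed it without scaling (-0.20, adjusted p = 0.0277). With the replicate number as a block, 7, 7 and 5 members were past the threshold in KO against WT, Het against WT and KO against Het, as without it. Deviations of same-numbered libraries correlated from -0.10 to 0.35 over 10 pairs, 5 of them above 0.1. Over 30 pairs of libraries with different numbers the range was -0.40 to 0.18, also with 5 above 0.1. The 5 same-numbered pairs above 0.1 all carried number 1 or 4 (0.13 to 0.35). Pairs of numbers 2 and 3 were all negative (-0.10 to -0.01). The pairs share libraries and are not independent of each other. The labels do not say that the numbers mark a shared culture or day, and the main fit did not use them. Without read counts, the low genes Hoxb1, Hoxb5 and Hoxb4 are limited by the Cufflinks intervals of single libraries.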
